A study of Mus musculus with 2 samples.

Results

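A set of 9 genes of the Nrf2 pathway and its antioxidant enzymes was examined in mouse marrow cultures driven to become osteoclasts, the large multinucleated cells that resorb bone. They are Nfe2l2 and Keap1, the transcription factor Nrf2 and its repressor; Nqo1; Gclc, Gclm and Gsr of glutathione metabolism; Txnrd1 and Srxn1 of the thioredoxin system; and Cat. The 9 genes were listed by name, and their probes were found by matching the transcript accession of each probe that was not a control to a mouse RefSeq gene table. All 9 of the 20654 genes named on the array were found, with 11 probes of 1 spot each.

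The Dnmt3a knockout group was cells of female C57BL/6 mice labelled Dnmt3a knockout, and the wild type group was cells of female C57BL/6 mice labelled wild type. In both groups nonadherent bone marrow cells had been grown with M-CSF for 2 days, and the adherent monocyte/macrophage precursors were then given RANKL, the cytokine that drives osteoclast formation, together with M-CSF. RNA of each group was hybridised to 1 Agilent 1-colour array. The allele, the cells that had lost the gene and the number of mice are not given in the sources used here. With 1 array per genotype there was no replicate, so nothing could be tested and no p-values appear. The number of arrays limits the precision of every value.

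Nrf2 is held in the cytoplasm by Keap1, which presents it to a Cul3 ubiquitin ligase for degradation. Oxidants and electrophiles modify Keap1, Nrf2 then accumulates, pairs with small Maf proteins and binds antioxidant response elements in front of genes that make glutathione, reduce thioredoxin and detoxify quinones. In osteoclast precursors RANKL signalling uses reactive oxygen species, and Nrf2 is known in mice as a restraint on osteoclast formation. Dnmt3a, a de novo DNA methyltransferase, adds methyl groups to CpG sites.

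Values are the scanner's processed signal, in arbitrary units. A difference is the log2 signal of the knockout array minus that of the wild type array, after each array was divided by its own 75th percentile (572 for the knockout, 584 for wild type), which adds 0.03 to the log2 ratio of the signals printed below. Each difference is given with its error, which combines the reading errors that the scanner software reports for the 2 spots. For most members the error of each spot was about 10.0% of its signal, and the combined error of both spots was 0.20 on the log2 scale. This error says nothing of how much cultures or mice vary. Among 259 probes spotted at least 8 times, the median SD of the difference was 0.07. A gene was called higher or lower when its difference was at least 0.32 on the log2 scale.

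Dnmt3a itself had a signal of 1822 on the knockout array, against 7042 on the wild type array, a log2 difference of -1.92 (error 0.20). All 11 osteoclast markers were well above background on both arrays. Directions are relative to the bulk of genes. With scaling to 8 spike-in probes every difference is 0.53 lower (single probes 0.30 to 0.72), and the median of all measured genes is -0.52, against 0.01 with 75th-percentile scaling. In a bulk culture, fewer cells of a type and less RNA per cell cannot be told apart.

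All 9 genes were well above background on both arrays, with the brightness around their spots between 34 and 50. Of these, 5 were higher and 4 lower on the knockout array, with a median difference of 0.21. Of the 13479 genes measured on both arrays, 51.9% lay above 0 and 48.1% below (the share above was 7.37% with spike-in scaling, 25.8% with median scaling). The genes called higher were Nqo1, Keap1 and Gclm, 3 of 9, beside 15.8% of all measured genes, and 0 of 9 were called lower, beside 13.8%. The call of Gclm was lost with quantile normalization (0.30) and those of Gclm and Keap1 with median scaling (0.15 and 0.24). With median scaling 1 was called higher (Nqo1) and 1 lower (Txnrd1), beside 7.77% and 30.3% of all measured genes. With spike-in scaling 0 were called higher and 5 lower, beside 1.76% and 75.4%. None of the 9 reached 2-fold in either direction, which 0.824% of all measured genes did upward and 0.727% downward. The difference exceeded the scanner error for 6 of the 9 genes, 5 of them higher and 1 lower, beside 45% of all measured genes.

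**Figure D1:**
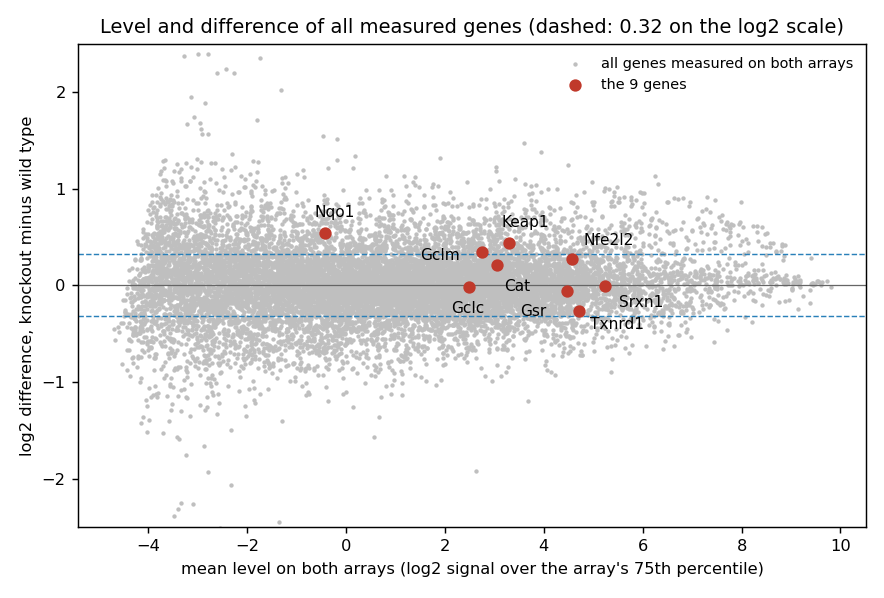
Each grey point is a gene measured on both arrays, placed by its mean level (x axis, log2 signal over the array's 75th percentile) and its log2 difference, Dnmt3a knockout minus wild type (y axis); red points are the 9 genes and dashed lines mark 0.32 in each direction. The 9 genes lie between -0.26 and 0.54, and 10 genes beyond 2.5 on the y axis are not drawn.

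The windows just before the annotated transcription starts of these genes are shown because Nrf2 binds response elements in front of its target genes. Only these windows were searched, so an element farther from a start would be missed. RefSeq (GRCm38.p6) gave a window of 250 bases before and 50 after the start for 7 of the 9 genes, all but Gclc and Gsr, with 3 starts for Txnrd1. The motifs searched on both strands were the core of the antioxidant response element, TGACNNNGC, and the AP-1 element, TGANTCA; a site reading TGACTCA and then GC would hold both. The response element core was found in 12.4% of all 32851 windows and in 14.0% of the 27025 genes with a window, and the AP-1 element in 7.81% of windows. Among the 9 genes the core was found in 4 of the 7 with a window, and among the other Nrf2 targets listed in 8 of 24 (33.3%). Capitals mark matches of either motif in the sequences below, which end before the start, and for Gclm at position -71, before the first annotated base of the gene. The matches in Gclm and Txnrd1 read on the strand opposite to the one printed.
Nfe2l2, minus strand, chr2:75704664-75704913: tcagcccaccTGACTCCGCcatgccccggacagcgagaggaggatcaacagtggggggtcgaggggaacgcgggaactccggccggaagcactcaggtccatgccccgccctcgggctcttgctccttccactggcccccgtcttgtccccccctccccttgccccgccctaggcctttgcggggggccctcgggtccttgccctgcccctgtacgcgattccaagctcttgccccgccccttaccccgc
Gclm, plus strand, chr3:122245307-122245486: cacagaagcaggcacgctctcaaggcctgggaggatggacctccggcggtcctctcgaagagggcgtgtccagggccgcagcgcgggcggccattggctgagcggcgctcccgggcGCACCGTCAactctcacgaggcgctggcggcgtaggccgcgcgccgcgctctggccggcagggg
Txnrd1, start 2, plus strand, chr10:82858956-82859205: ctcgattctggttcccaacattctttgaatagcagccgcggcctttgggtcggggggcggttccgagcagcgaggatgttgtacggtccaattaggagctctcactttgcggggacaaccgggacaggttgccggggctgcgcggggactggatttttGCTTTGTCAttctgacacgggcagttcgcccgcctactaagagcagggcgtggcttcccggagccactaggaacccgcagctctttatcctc
Srxn1, plus strand, chr2:152105274-152105523: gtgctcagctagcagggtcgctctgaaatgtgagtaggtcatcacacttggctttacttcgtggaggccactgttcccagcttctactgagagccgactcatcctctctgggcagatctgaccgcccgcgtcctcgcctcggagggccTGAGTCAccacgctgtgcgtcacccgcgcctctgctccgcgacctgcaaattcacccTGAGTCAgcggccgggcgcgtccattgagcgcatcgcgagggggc
Nqo1, minus strand, chr8:107403206-107403455: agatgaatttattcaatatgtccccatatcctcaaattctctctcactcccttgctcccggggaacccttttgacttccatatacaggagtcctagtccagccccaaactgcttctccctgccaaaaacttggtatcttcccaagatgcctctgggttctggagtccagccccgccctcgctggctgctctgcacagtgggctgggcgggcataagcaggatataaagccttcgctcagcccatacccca

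The match in Nfe2l2 spanned positions -240 to -232 from the start, that in Gclm -134 to -126 and that in Txnrd1 -92 to -84 from its start 2. In Srxn1 both capital stretches are AP-1 elements, at positions -102 to -96 and -45 to -39. The second is followed by gc, so it differs from the searched core only in having G in place of C. A match to the response element core lay at positions 29 to 37 after the start of Srxn1. Nqo1, shown for contrast as the member with the largest difference, had neither motif in its window, and nor had Keap1 and Cat. The genes with a core in a window differed by 0.34 (Gclm), 0.27 (Nfe2l2), -0.00 (Srxn1) and -0.26 (Txnrd1). Those with none in the window differed by 0.54 (Nqo1), 0.44 (Keap1) and 0.21 (Cat). Any link between matches and differences was not tested. A match is a description of letters and not a bound site, and a window without a match does not show that an element is lacking. CpG sites per window numbered 48 in Gclm, 26 in Srxn1, 18 in Nfe2l2, 13 in Keap1, 11 in Cat and 5 in Nqo1, and 3, 27 and 12 at the starts of Txnrd1, where the median of all windows was 7 (quartiles 3 and 20).

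**Figure D2:**
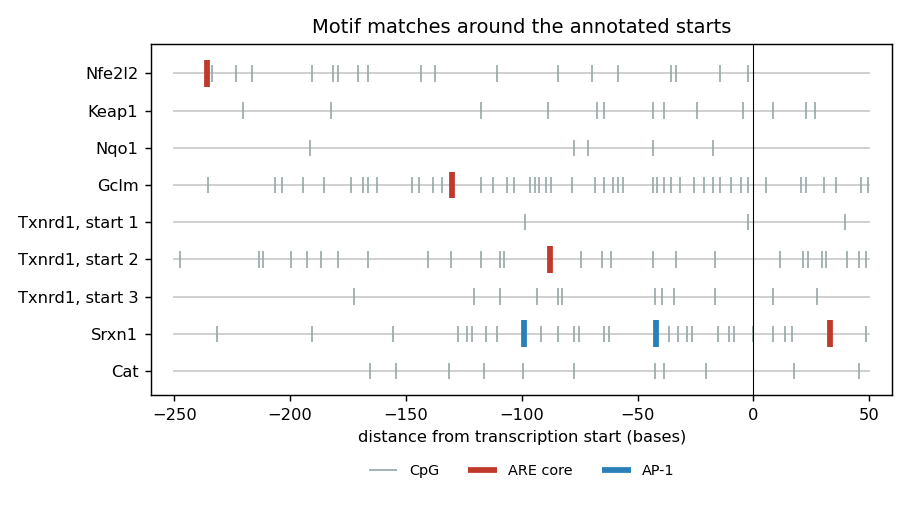
Position of each motif match around the annotated starts, in bases from the start (x axis); red bars are the response element core, blue bars the AP-1 element and thin grey bars CpG sites. Red bars stand in the windows of Nfe2l2, Gclm, Txnrd1 (start 2) and Srxn1, and the 5 CpG sites of Nqo1 contrast with the 48 of Gclm.

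Both regulators were higher on the knockout array. Nfe2l2, which encodes Nrf2, had a signal of 14961 on the knockout array, against 12637 on the wild type array, a log2 difference of 0.27 (error 0.20; 1.21-fold). Keap1 had 6531 on the knockout array, against 4922 on the wild type array, a difference of 0.44 (error 0.20; 1.35-fold). The factor and its repressor were thus both above the scanner error in the same direction. Keap1 exceeded Nfe2l2 by 0.16 with an error of 0.29, which is within the error of that contrast. Among all measured genes the difference of Keap1 stood at percentile 89.6 and that of Nfe2l2 at 81.1. With spike-in scaling both were below 0, at -0.09 for Keap1 and -0.26 for Nfe2l2.

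**Figure D3:**
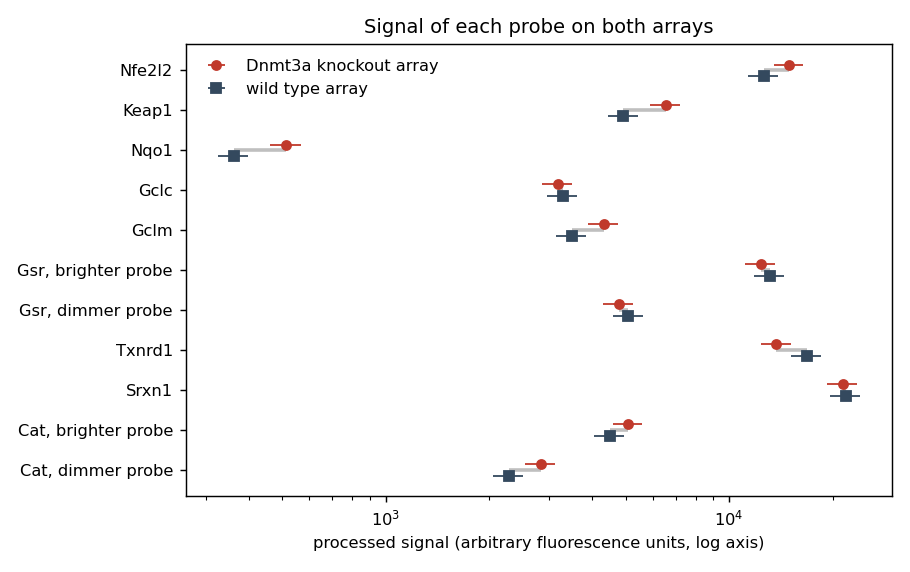
Processed signal of each of the 11 probes (x axis, logarithmic, arbitrary units) on the Dnmt3a knockout array (red circles) and the wild type array (dark squares), with the scanner software's error as bars. The knockout circle lies to the right for Nfe2l2, Keap1, Nqo1, Gclm and both Cat probes and to the left for Txnrd1, Gclc, Srxn1 and both Gsr probes, past the scanner error only for Txnrd1; levels of different probes are not comparable.

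Nqo1, the quinone reductase that uses NADPH to detoxify quinones and a standard readout of Nrf2 activity, had the largest difference of the 9. Its signal was 514 on the knockout array, against 361 on the wild type array, a difference of 0.54 (error 0.21; 1.45-fold). The probe was well above background on both arrays. After normexp background correction its difference was 0.38, below Keap1 (0.47) and Gclm (0.40), so it was no longer the largest. With spike-in scaling Nqo1 was at 0.01. Nqo1 stood at percentile 92.9 of all measured differences.

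The 2 subunits of glutamate-cysteine ligase, the rate-limiting enzyme of glutathione synthesis, differed from each other. Gclm, the modifier subunit, had 4317 on the knockout array, against 3477 on the wild type array, a difference of 0.34 (error 0.20; 1.27-fold). Gclc, the catalytic subunit, had 3172 on the knockout array, against 3282 on the wild type array, a difference of -0.02 (error 0.20). The modifier thus stood 0.36 above the catalytic subunit, with an error of 0.29. A factor applied to a whole array cancels in this contrast, which lay between 0.36 and 0.44 over 8 alternatives. Only quantile normalization, normexp correction and centring by blocks of the array could move it. The other alternatives apply 1 factor per array or act only on genes with several or dim probes. The difference of Gclm alone was 0.15 with median scaling and -0.19 with spike-in scaling, and that of Gclc -0.21 and -0.55.

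Gsr, the glutathione reductase that returns oxidised glutathione to its reduced form, was measured by 2 probes with like results. The brighter had 12343 on the knockout array, against 13137 on the wild type array, a difference of -0.06, and the dimmer had 4766 on the knockout array, against 5094 on the wild type array, a difference of -0.07 (error 0.20 each). Both lay within the scanner error, which does not show the gene to be equal on both arrays. With median scaling the brighter was at -0.26, past the error, and with spike-in scaling at -0.59.

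Txnrd1, the cytosolic selenoprotein that reduces thioredoxin, was the only one of the 9 lower by more than the scanner error. Its signal was 13733 on the knockout array, against 16823 on the wild type array, a difference of -0.26 (error 0.20; 1.20-fold lower), at percentile 17.7 of all measured genes. With median scaling its difference was -0.46 and with spike-in scaling -0.79, so it was called lower under both. Srxn1, sulfiredoxin, which repairs overoxidised peroxiredoxins, had 21397 on the knockout array, against 21902 on the wild type array, a difference of -0.00 (error 0.20), with -0.20 under median and -0.53 under spike-in scaling. Nqo1 stood 0.80 above Txnrd1, the widest gap among the 9, with an error of 0.29 and a range of 0.65 to 0.83 over 8 alternatives. Genes known as targets of the same factor were thus found at both ends of the 9.

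Cat encodes catalase, the peroxisomal enzyme that breaks down hydrogen peroxide. Its brighter probe had 5086 on the knockout array, against 4502 on the wild type array, a difference of 0.21 (error 0.20; 1.15-fold), and its dimmer probe had 2826 on the knockout array, against 2280 on the wild type array, a difference of 0.34 (error 0.20; 1.27-fold). Both probes were higher on the knockout array, the brighter by about the size of the error. Catalase is also abundant in red cells. Of 9 listed erythroid markers 4 could be measured, with summed signals of 841 on the knockout array and 960 on the wild type array and a median of -0.37. Epor, which was higher on the knockout array, gave 466 of the knockout sum and 379 of the wild type sum. Klf1, Alas2 and Epb42 were among those not well above background on either array. With spike-in scaling Cat was at -0.32, and with median scaling at 0.01.

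**Figure D4:**
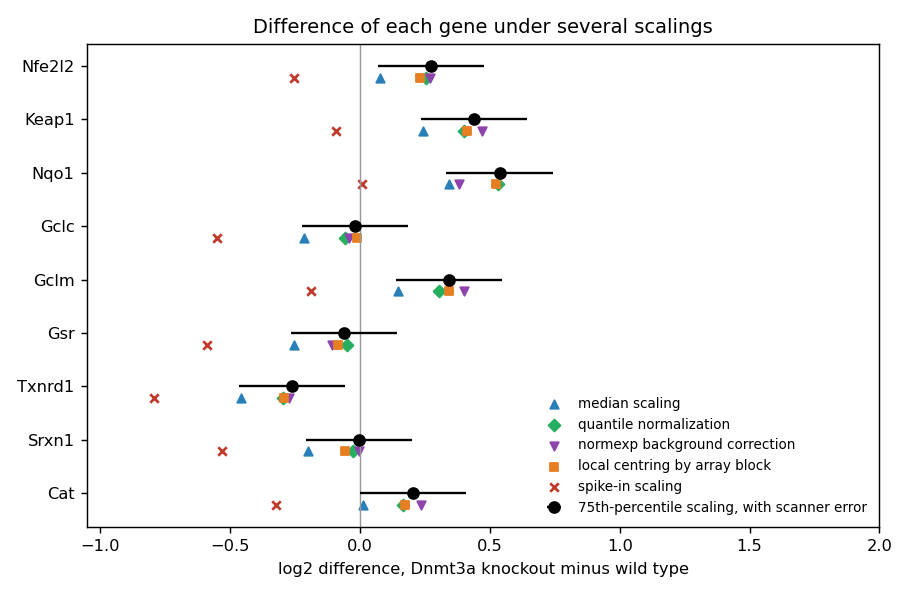
Log2 difference of each of the 9 genes, Dnmt3a knockout minus wild type (x axis). Black points with the scanner error use 75th-percentile scaling and coloured marks are alternatives. With spike-in scaling all but Nqo1 (0.01) lie below 0, and Txnrd1, Gclc, Gsr and Srxn1 lie below 0 in all of those drawn.

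Position on the array was checked for each spot. Nqo1, Gclc, Gclm, Srxn1 and the brighter Cat probe lie in the lowest-numbered rows of the array, a band with 33.4% of the measured spots, where the SD of the difference over spots was 0.44, against 0.35 in the other rows. Nfe2l2 and the brighter Gsr probe lie in a corner of high rows and columns with 1268 measured spots, where the SD was 0.42. The median difference of the 271 to 495 measured spots within 15 rows and 15 columns of each member ranged from -0.01 to 0.06. After centring each block of the array on its own median (added once the values were known), Keap1 was at 0.41, Nqo1 at 0.53, Gclm at 0.34 and Txnrd1 at -0.29.

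Other genes of the pathway, listed by their function, were measured beside the 9. Over 6 lists, 96 of 104 genes could be measured; their median was 0.11 and 63 lay above 0, with 22 called higher and 6 lower, beside the 15.8% and 13.8% of all measured genes. The balance of calls turned with the scaling, as did that of all measured genes. With median scaling the median of the 96 was -0.0875, with 38 above 0, 7 called higher and 17 lower. The shares of all measured genes were then 25.8%, 7.77% and 30.3%, with a median of -0.18. With spike-in scaling the median of the 96 was -0.42, with 7 above 0, 0 called higher and 59 lower. The shares of all measured genes were then 7.37%, 1.76% and 75.4%, with a median of -0.52. None of the 96 was past 2-fold with 75th-percentile scaling.

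Of 15 other regulators 14 were measured, with a median of 0.00 and 7 on each side of 0. Bach1, the repressor that competes with Nrf2 for its sites, had 5838 on the knockout array, against 4222 on the wild type array, a difference of 0.50 (error 0.20; 1.41-fold). Nfe2, the related factor of blood cells, was at 0.42, and these were the 2 called higher, beside 15.8% of all measured genes. Maff, a small Maf protein, had 300 on the knockout array, against 456 on the wild type array (-0.58, error 0.21). It was the one called lower, beside 13.8% of all measured genes, and Bach2 was next at -0.19. Mafg, another small Maf partner of Nrf2, differed by -0.04, with its other 2 probes at -0.04 and -0.03. Bach1 and Keap1 were thus both called higher, while the 14 regulators were evenly split around 0. Bach2, a repressor related to Bach1, lay below 0 within its error. So did Cul3 (-0.14, error 0.20), of the ligase that Keap1 uses, which is named outside the rule given below. The spot of Bach1 lies in the band of low rows. With median scaling none of these regulators was called higher and 5 were called lower, beside 7.77% and 30.3% of all measured genes. Bach1 was then highest at 0.30, and the call of Keap1 was lost as well (0.24). With spike-in scaling all 14 lay below 0, where 7.37% of all measured genes lay above 0.

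Other targets of Nrf2 lay mostly above 0 with 75th-percentile scaling. Of 28 listed, 23 were measured, with a median of 0.25, 20 above 0, 7 called higher and 0 lower, beside 51.9%, 15.8% and 13.8% of all measured genes. With median scaling 12 of the 23 lay above 0, with 1 called higher and 1 lower. The shares of all measured genes were then 25.8%, 7.77% and 30.3%. With spike-in scaling 1 lay above 0, with 0 called higher and 11 lower, beside 7.37%, 1.76% and 75.4% of all measured genes. Cbr3, a carbonyl reductase, was highest, with 14060 on the knockout array, against 9411 on the wild type array (0.61, error 0.20; 1.53-fold), and Osgin1, an oxidative stress-induced growth inhibitor, was next at 0.48. Me1, malic enzyme, was lowest at -0.14, with its other probes at -0.15 and -0.09, and the export pump Abcc1 was at -0.07. Hmox1, the haem oxygenase, had 35475 on the knockout array, against 34451 on the wild type array, a difference of 0.07 (its other probe 0.20). Slc7a11, the cystine transporter, had 22.6 on the knockout array, against 28.1 on the wild type array, and was well above background on the knockout array only, so no fold is given.

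With spike-in scaling the median of the target list was -0.28, against -0.52 for all measured genes.

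Other glutathione genes lay on both sides of 0: 20 of 22 were measured, and the median was 0.05. Of these, 5 were called higher and 3 lower, beside 15.8% and 13.8% of all measured genes. With median scaling 3 were called higher and 6 lower, beside 7.77% and 30.3%, and with spike-in scaling 0 and 12, beside 1.76% and 75.4%. Mgst1, a membrane-bound glutathione transferase, was highest, with 20866 on the knockout array, against 13914 on the wild type array (0.61; its other probe 0.66), and the glutaredoxin Glrx was next at 0.57. Gpx8, a peroxidase of the endoplasmic reticulum, had 680 on the knockout array, against 1046 on the wild type array (-0.59), and Chac1, which degrades glutathione, was at -0.46. Gpx1, the main cytosolic peroxidase, was at 0.24.

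The thioredoxin list had a median of 0.24 over its 17 genes. Of these, 6 were called higher and 1 lower, beside 15.8% and 13.8% of all measured genes. With median scaling 2 were called higher and 2 lower, beside 7.77% and 30.3%, and with spike-in scaling 0 and 7, beside 1.76% and 75.4%. Sesn3 (0.63, error 0.26, near background) and Sesn1 (0.59), members of the sestrin family, were highest. Prdx1, the abundant cytosolic peroxiredoxin, was at 0.21 (its other probe 0.30), and Txn1, thioredoxin itself, was at -0.06. The lowest were Prdx3 and Txn2, the peroxiredoxin and thioredoxin of mitochondria: Prdx3 had 3875 on the knockout array, against 5064 on the wild type array (-0.36), and Txn2 was at -0.23.

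Among superoxide dismutases the mitochondrial enzyme Sod2 was at -0.26, with 44517 on the knockout array, against 54441 on the wild type array. The secreted Sod3 was at -0.53, the one of 4 called lower, beside 13.8% of all measured genes. The cytosolic Sod1 was at 0.12 and its copper chaperone Ccs at 0.19. With median scaling 2 of the 4 were called lower, beside 30.3%, and with spike-in scaling all 4, beside 75.4%. Peroxisome genes other than Cat had a median of 0.05 over 18 genes. Of these, 2 were called higher and none lower, beside 15.8% and 13.8% of all measured genes. The oxidase Acox3 (0.46, its other probe 0.19) was among the 2. With median scaling 1 was called higher and 1 lower, beside 7.77% and 30.3%, and with spike-in scaling 0 and 14, beside 1.76% and 75.4%. Pex3 (-0.22) and Abcd3 (-0.12) were lowest.

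Producers of oxidants, the source against which these enzymes work, had a median of 0.28 over 11 of 15 genes, with 5 called higher and 0 lower, beside 15.8% and 13.8% of all measured genes. With median scaling 4 were called higher and 1 lower, beside 7.77% and 30.3%, and with spike-in scaling 0 and 4, beside 1.76% and 75.4%. Cybb, the catalytic subunit of the phagocyte NADPH oxidase, had 4554 on the knockout array, against 2982 on the wild type array (0.64, error 0.20; 1.56-fold). Rac2 (-0.28) and Nos2 (-0.11) were lowest, and the spot of Rac2 lies in the band of low rows.

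**Figure D5:**
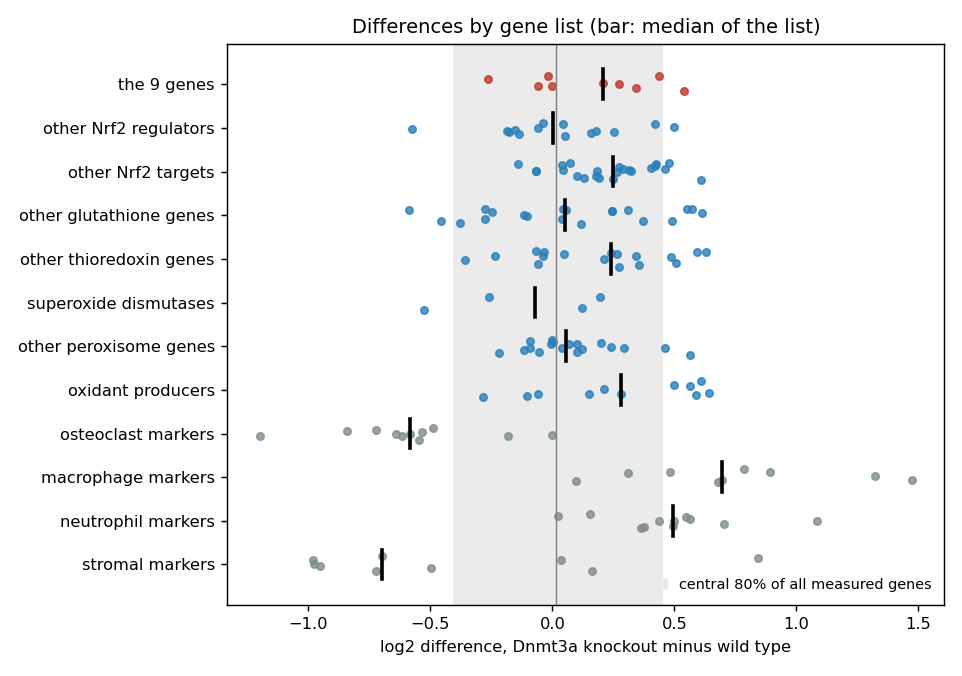
Log2 difference, Dnmt3a knockout minus wild type (x axis), of each gene measured on both arrays by list, with a bar at the list's median; the grey band holds the central 80% of all measured genes (-0.40 to 0.45) and the thin line their median. The medians of the 9 genes (0.21), other targets (0.25) and thioredoxin genes (0.24) lie right of that line and inside the band, and marker lists lie farther out.

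Markers of cell types differed between the arrays as well. Osteoclast markers were measured for 11 of 11 genes, with summed signals of 988199 on the knockout array and 1160805 on the wild type array and a median of -0.58, from Tnfrsf11a (-1.20) and Calcr (-0.84) to Ctsk (-0.18) and Acp5 (-0.00). The sums of marker lists are of unscaled signals, so the brightest probes weigh most. On the knockout array these were Acp5 (442434) and Ctsk (356772) for osteoclasts and Csf1r (332857) for macrophages. Macrophage markers were measured for 9 of 11, with sums of 436297 on the knockout array and 379099 on the wild type array and a median of 0.69. They ran from Marco (1.47) and Vsig4 (1.32) to Msr1 (0.31, its other probe 0.43) and Csf1r (0.10). The other 2 probes of Csf1r were at 0.35 and 0.50. Cd163 was not well above background on either array.

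Neutrophil markers were measured for 11 of 12, with sums of 280989 on the knockout array and 232547 on the wild type array and a median of 0.49, between Mmp8 (1.08) with Retnlg (0.70) and Elane (0.15) with Csf3r (0.02). Stromal and osteoblast markers were measured for 9 of 11, with sums of 46654 on the knockout array and 73073 on the wild type array and a median of -0.70. Cxcl12 and Alpl were lowest at -0.98 each, and Lepr (0.16) and Bglap2 (0.84, error 0.30) were highest. Bglap2 was near background, with 67.2 on the knockout array, against 38.2 on the wild type array. Runx2 and Lum were not well above background on either array. Within the erythroid list Hbb-b2 (-0.73) and Hba-a1 (-0.63) were lowest and Slc4a1 (-0.10) and Epor (0.33) highest; the globins have near-identical copies and are uncertain. With spike-in scaling the medians were -1.11 for osteoclast, 0.17 for macrophage, -0.0353 for neutrophil, -1.23 for stromal and -0.90 for erythroid markers, so that of the neutrophil list turned in sign. The part of these cell types in the differences of the 9 genes was not tested.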

How the data were processed

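Per the file headers, the authors deposited background-subtracted spot intensity from Feature Extraction 10.10.1.1 (grid build mm9), not normalized between arrays; the submitters' processing notes name version 9.1, and the conflict was not resolved. The deposited value table is the same processed intensity times 1 factor per array (median 1.54 for the knockout, 1.55 for wild type), linear, uncentred and not a ratio between arrays; how the factor was chosen stays unknown, and its column medians were 66.5 and 59.6. Both arrays share a slide and a scan.

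Of 59305 spots per array that were not controls, 35398 were well above background on the knockout array and 31272 on the wild type array; 172 on the knockout and 157 on the wild type array were marked uneven or outlying and left out, and 0 were saturated. Signals were scaled to the 75th percentile and taken to log2 (Python 3.11.15, numpy 2.4.6, pandas 2.3.3). Of 55649 probes, 27224 (48.9%) matched a RefSeq gene of GRCm38.p6 by accession, and a gene's brightest probe stood for it. A gene counted as measured when its probe was well above background on both arrays, which held for 13479. The steps were tested on simulated data. The planned comparison needed no test, since each genotype had 1 array.

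The results were recomputed under 8 other settings: median, quantile and spike-in scaling, normexp correction (limma 3.58.1, R 4.3.3, offset 50, on median spot signals in place of the planned means, which were not used here), the deposited table, the mean of probes, no filter on dim probes and leaving out the band of low array rows. Local centring in blocks of 32 rows and 21 columns was added after the data were seen.

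The members and lists were chosen with earlier results of these data known. The text names the 9 members, the 2 highest and 2 lowest measured genes of each list, and Bach1, Mafg, Hmox1, Slc7a11, Prdx1, Txn1, Gpx1, Sod1, Sod2, Cybb and Dnmt3a; genes outside this rule are said to be so, or were not well above background. A few genes chosen this way were left out of the text. No gene was named for a like pattern, since 2 arrays give 1 difference per gene.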

Additional observations from a re-analysis of the deposited data

How the results depend on the processing

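Quantile normalization, normexp correction, the deposited table, no filter on dim probes and local centring moved no member's difference by more than its scanner error and no median of the 9 genes or of a pathway list by more than 0.07, the SD between repeated spots. Marker lists moved further: quantile normalization put the medians at -0.67 for osteoclast, 0.42 for neutrophil and -0.47 for erythroid markers, normexp put the erythroid median at -0.21, and local centring put the neutrophil median at 0.42. With spike-in scaling Keap1 was at -0.0914, Gclm at -0.19, Nfe2l2 at -0.26 and Cat at -0.32, all turned in sign. The medians were -0.32 for the 9 genes, -0.28 for other targets, -0.29 for thioredoxin genes and -0.25 for oxidant producers, also turned in sign. Those of other regulators (-0.53, from 0.00), other glutathione genes (-0.48, from 0.05) and peroxisome genes (-0.48, from 0.05) turned as well. The median of superoxide dismutases went from -0.07 to -0.60. This setting put 8 of the 9 genes below 0, called 0 higher and called 5 lower (4, 3 and 0 with 75th-percentile scaling). It subtracts the same 0.53 from every gene. With median scaling the medians were 0.0107 for the 9 genes, -0.19 for other regulators, 0.0522 for other targets, -0.15 for glutathione, 0.0462 for thioredoxin, -0.27 for superoxide dismutases, -0.14 for peroxisome genes and 0.084 for oxidant producers, with 1 of the 9 genes called higher and 1 lower; the median of all measured genes was then -0.18. The mean of all probes put the median of the 9 genes at 0.27. Without the band of low array rows, which leaves 5 of the 9 genes, it was likewise 0.27 with 2 genes below 0, and the medians were -0.14 for other regulators and 0.21 for oxidant producers, as fewer genes enter. No paired analysis was possible because each genotype has 1 array, and for the same reason no replicate could be left out.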
